A study of Mus musculus with 18 samples.

Results

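Control delta cells were compared with control alpha cells, 3 libraries against 3 of the 18 libraries in the series. Members were taken from the sample labels, which name the cell type, the treatment and the replicate. The mice were 12-week-old C57BL/6JRj males, for which the study names no transgene and no deleted gene. Their pancreatic islets, the clusters of hormone-secreting cells of the pancreas, were cultured for 20 h with 5 ng/mL of the cytokine interferon gamma (IFNγ) or without it (control), then dissociated and sorted by flow cytometry. All sorted cells were positive for the epithelial protein Epcam and negative for markers of leukocytes, red blood cells and endothelium. Delta cells were the CD24-high fraction, alpha cells the CD24-low and CD71-negative fraction, and beta cells the CD24-low and CD71-positive fraction. CD49f was also in the sorting panel, and the study's text states no cutoff for it. The gate therefore defines each population by surface proteins and not by its hormone, and other CD24-high cells can fall into the delta fraction. Strand-specific, ribosomal RNA-depleted libraries were made from 5 ng of total RNA, and the deposited values are RSEM expected counts per gene. Library totals were 8364653, 7379061 and 8809998 expected counts in delta controls 1, 2 and 3, and 8062219, 8865166 and 8163670 in alpha controls 1, 2 and 3.

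Alpha and delta cells are neighbours in the islet with opposed tasks. Alpha cells release glucagon, which raises blood glucose, and are driven by amino acids, adrenaline and vasopressin. Delta cells release somatostatin, which acts on the cells around them and restrains both glucagon and insulin. Both descend from endocrine progenitors that switch on Neurog3, and Hhex is known as a factor of the delta cell.

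Levels are given below as normalised counts (CPM, per library total, corrected by the trimmed mean of M-values, TMM) in replicates 1, 2 and 3 of a group. Differences are fitted log2 fold changes ± standard error, positive where delta controls were higher, from edgeR's quasi-likelihood test, and p-values are adjusted over the 17338 genes tested (Benjamini-Hochberg). A gene is called when its adjusted p is under 0.05. Because the 3 libraries of a group are bulk samples, more cells of a type and more RNA per cell cannot be told apart in any difference below.

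Of 17338 genes, 1897 (10.9%) were higher and 1520 (8.77%) were lower in delta controls, so that 19.7% were called in all. These shares are the background for every count of called list members below. Among the genes higher in delta controls the median log2 fold change was 1.73, and 343 genes exceeded a log2 fold change of 4. Among the genes lower in delta controls the median was -1.34, and 173 genes were lower by a log2 fold change of more than 4. Without delta control 3 the test called 1425 genes higher and 1013 lower, and without alpha control 3 it called 1258 higher and 1028 lower. The 3 libraries of each group did not overlap with those of the other in 41.5% of all genes tested, and 1874 of the 1897 higher and 1499 of the 1520 lower genes were of this kind. The plot of all genes shows the hormone genes Sst and Gcg at the far right of either side.

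**Figure D1:**
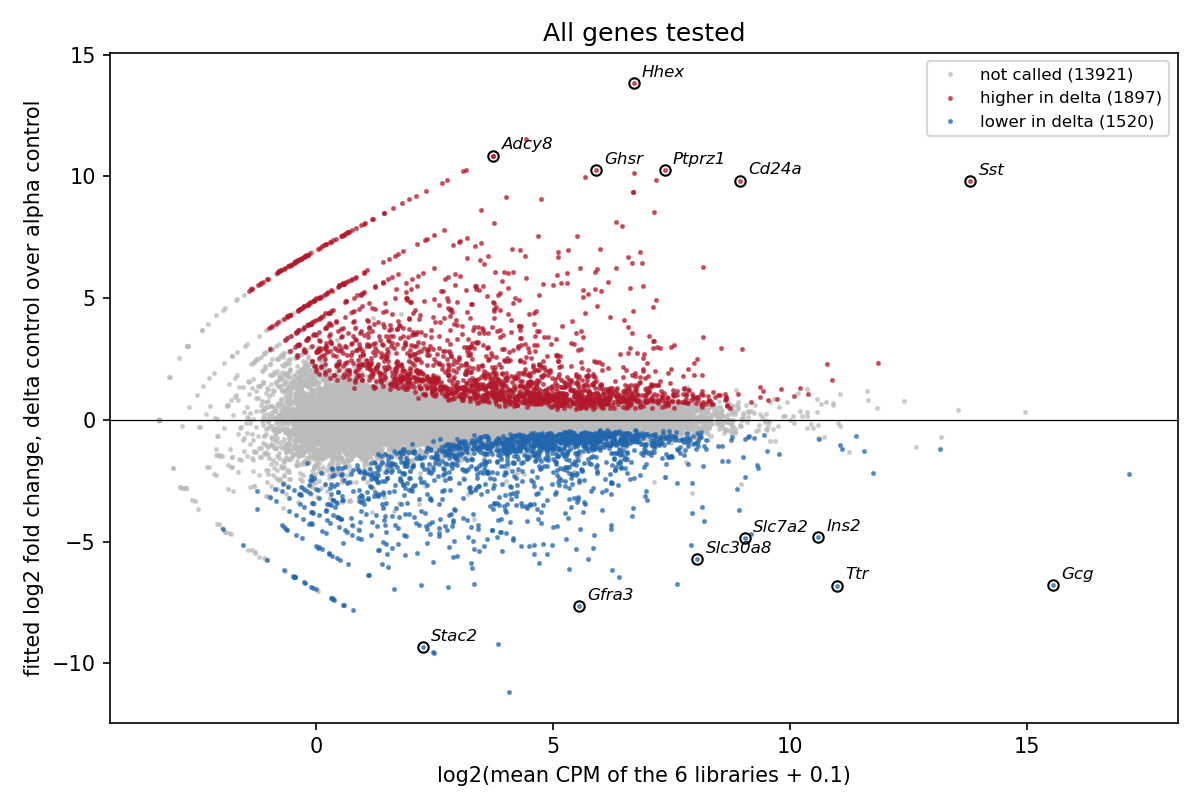
Each point is one of the 17338 genes tested, with log2 of the mean CPM over the 6 control libraries plus 0.1 on the x axis and the fitted log2 fold change of delta over alpha controls on the y axis. The 1897 genes called higher in delta controls are red, the 1520 called lower are blue and the rest grey, and the sloped lines of points at the left are genes with very few counts in one group, whose fitted fold change depends on the fit's prior count.

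Several properties of the libraries differed between delta and alpha controls. Ribosomal RNA took 5.36% to 6.63% of the counts in delta controls and 11.5% to 27.2% in alpha controls. With IFNγ it took 2.55% to 7.90% in delta cells and 3.14% to 20.6% in alpha cells. Among the 4330 genes with the lowest GC content 746 were higher and 117 lower in delta controls, whereas among the 4330 with the highest GC content 227 were higher and 613 lower. With an offset for GC content in each library, these counts became 426 and 308 for the lowest GC content, and 460 and 396 for the highest, and 79.3% of the 3417 calls were kept. Part of the GC pattern came with delta control 3. Without that library, 488 genes were higher and 115 lower among the 4500 of lowest GC content. Among the 4500 of highest GC content, 237 were then higher and 296 lower. With ribosomal RNA and mitochondrial genes left out before scaling, 1946 genes were higher and 1469 lower, and 97.9% of the calls were kept. Dates in the file names, whose meaning no source states, were shared only by delta control 3 and alpha control 2. Between these 2 libraries 1887 of the 1897 higher genes and 1520 of the 1520 lower genes had the sign of the whole comparison. These libraries entered the comparison that chose the genes.

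The hormone genes set the populations apart. Sst, which encodes somatostatin (GRCm38, chromosome 16, 23889573 to 23890958, minus strand), was at 35919, 34772 and 14715 CPM in delta controls and 15.7, 74.1 and 6.84 CPM in alpha controls. Delta control 3 was the lowest of its group, and no library of one group came near the other. The difference was 9.79 ± 1.32 (edgeR adjusted p = 2.8e-05). Gcg, the glucagon gene (chromosome 2, 62474530 to 62483650, minus strand), was at 77.6, 246 and 2262 CPM in delta controls and 117440.0, 88866 and 78064 CPM in alpha controls. Delta control 3 held the most Gcg of its group, and the difference was -6.78 ± 1.37 (edgeR adjusted p = 0.0015), or -9.19 ± 1.54 without delta control 3. Length-scaled levels (TPM) ranked Sst first in delta controls at a mean of 27255 ± 12356 TPM (SD, n = 3) and Gcg first in alpha controls at 65697 ± 8725 TPM.

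The starts of both hormone genes, Sst and Gcg, and of the delta cell factor gene Hhex are shown as RefSeq gives them, from 250 bases before to 50 bases after the start site, 5′ to 3′ on the gene's strand. The 3 motifs searched, on both strands, do not overlap one another here. They were the cAMP response element TGACGTCA, the TATA box TATAAA and the homeodomain-type palindrome TAATTA. Capitals mark the matches.
Sst, GRCm38.p6 chr16:23890795-23891094, minus strand: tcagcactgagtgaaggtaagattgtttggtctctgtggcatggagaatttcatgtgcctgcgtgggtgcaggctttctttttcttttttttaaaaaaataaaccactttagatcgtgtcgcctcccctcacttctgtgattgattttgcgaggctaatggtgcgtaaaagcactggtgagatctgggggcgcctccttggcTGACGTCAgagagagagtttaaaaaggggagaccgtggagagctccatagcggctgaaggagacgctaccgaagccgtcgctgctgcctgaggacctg
Hhex, GRCm38.p6 chr19:37434591-37434890, plus strand: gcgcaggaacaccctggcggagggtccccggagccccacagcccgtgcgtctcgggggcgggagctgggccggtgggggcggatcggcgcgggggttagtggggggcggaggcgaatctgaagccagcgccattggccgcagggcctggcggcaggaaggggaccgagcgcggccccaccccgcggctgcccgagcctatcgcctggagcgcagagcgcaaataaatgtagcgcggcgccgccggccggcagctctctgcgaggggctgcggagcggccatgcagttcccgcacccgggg
Gcg, GRCm38.p6 chr2:62483604-62483903, minus strand: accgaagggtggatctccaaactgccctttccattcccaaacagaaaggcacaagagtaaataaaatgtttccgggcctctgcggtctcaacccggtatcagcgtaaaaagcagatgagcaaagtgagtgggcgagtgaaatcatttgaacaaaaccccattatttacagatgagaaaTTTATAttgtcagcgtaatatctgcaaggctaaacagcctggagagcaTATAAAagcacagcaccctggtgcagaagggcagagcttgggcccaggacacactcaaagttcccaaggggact
The Sst window held TGACGTCA 48 to 41 bases before the start site, a sequence found in 1.79% of the 32851 promoters of this length in RefSeq's table. The Gcg window held TATAAA 24 to 19 bases before the start and, on the opposite strand, 72 to 67 bases before it, a motif of 13.6% of all promoters. In the Hhex window, which was 75.7% G and C, none of these letters occurred. RefSeq's table held a promoter for 11038 of the 17320 symbols tested. TATAAA was in 9.55% of the promoters of genes higher in delta controls, 7.29% of those of genes lower in them and 7.57% of those of all genes tested. TAATTA was in 4.14% of the promoters of genes higher in delta controls, 2.81% of those of genes lower in them and 2.78% of those of all genes tested, and TGACGTCA in 2.13%, 2.21% and 2.96%. A match is a description of these letters and not a binding site.

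Other peptide hormones were shared or came in small amounts. Iapp, which encodes islet amyloid polypeptide, was at 4868, 7186 and 6308 CPM in delta controls and 699.8, 2401 and 514 CPM in alpha controls, with a difference of 2.34 ± 0.55, and stood at 15075 ± 1487 CPM (SD, n = 3) in beta controls. Alpha control 2 was the highest alpha library. Pyy, which encodes peptide YY, was at 5005, 5741 and 2326 CPM in delta controls and 1574, 1959.9 and 2181 CPM in alpha controls, with a difference of 1.19 ± 0.49 that was not called (edgeR adjusted p = 0.098), although each delta library lay above each alpha library. The pancreatic polypeptide gene Ppy was at 2239, 2476 and 1159 and 1694, 2410.0 and 2352 CPM, with overlapping groups. By mean TPM over all genes, Pyy and Ppy had ranks 2 and 4 in delta controls and ranks 4 and 3 in alpha controls. Ghrl, the ghrelin gene, varied between 0.519 and 18.2 CPM among delta controls and did not pass the test. Of 40 prohormone and secreted peptide genes listed, 15 passed the low-count filter, 2 were higher and 4 lower, and 4 were higher in the fit of the 6 control libraries alone.

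Beta cell genes were uneven among the alpha libraries. Ins2, an insulin gene, was at 1728, 6503 and 633 CPM in alpha controls and 71.2, 45 and 196 CPM in delta controls, against 28161 ± 2458 CPM in beta controls. It was lower in delta controls, at -4.83 ± 0.86 with all libraries and -3.50 ± 0.72 without alpha control 2. Alpha control 2 was also the highest alpha library for the beta cell genes Mafa, at 9.88, 43.4 and 6.95 CPM, and Ucn3, at 4.07, 25.7 and 4.6 CPM. Without alpha control 2 the calls of Sytl4 (a granule protein, log2 fold change -1.58, edgeR adjusted p = 0.20) and G6pc2 (a glucose-6-phosphatase, -2.43, edgeR adjusted p = 0.070) were lost. Both were also lost without delta control 2 (edgeR adjusted p = 0.068 and 0.053), and that of Sytl4 without delta control 1 (0.064). In all, 10 of 17 beta cell identity genes tested were lower and 2 were higher in delta controls, and their summed level was 5244 to 7551 CPM in delta controls and 2379 to 12971 CPM in alpha controls. The part of beta cell RNA in genes lower in delta controls and abundant in beta cells was not tested. The zinc transporter gene Slc30a8, also in this list, was even among alpha controls, at 525, 492 and 531 CPM, and at 4.68, 5.08 and 19.7 CPM in delta controls.

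Acinar genes were higher in delta than in alpha controls. Acinar cells are the enzyme-secreting cells around the islets. Of 31 acinar genes listed, 26 passed the filter and 25 were higher in delta controls, with none lower. Their summed level was 1831, 2083 and 3903 CPM in delta controls 1, 2 and 3 and 31.2 to 85.7 CPM in alpha controls. In beta controls 1, 2 and 3 it was 2860, 167 and 51.4 CPM, so that a high level was not particular to the delta fraction. The amylase gene Amy2a4, which has near-identical copies, was at 33.4, 17.5 and 806 CPM in delta controls, so that delta control 3 held most of it, and its call was lost without that library (6.35 ± 2.29, edgeR adjusted p = 0.079), without alpha control 3 (edgeR adjusted p = 0.055) and by limma-voom (adjusted p = 0.19). Without delta control 3, 23 acinar genes were called higher. The part of acinar RNA in other differences was not tested.

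Markers of other cells were low or mixed. Among 17 duct genes listed, 14 were tested, 5 were higher and 1 was lower in delta controls, with 3 higher without delta control 3, 7 with GC offsets and 9 with the date term. The duct keratin gene Krt19 stood at 3.05, 1.19 and 7.27 CPM in delta controls and the chloride channel gene Cftr at 0.191, 0.541 and 2.8 CPM, both named after their values were seen. Spp1, which encodes osteopontin, was at 66.2, 78.5 and 199 CPM in delta controls and 1083, 617 and 777 CPM in alpha controls, so that this duct marker was lower in the delta fraction (-2.85 ± 0.45). Clu, which encodes clusterin, was at 1121, 761 and 774 CPM in delta controls and 131, 112 and 112 CPM in alpha controls. Summed levels of the other lists were 7.47 to 9.73 CPM in delta controls and 5.81 to 9.30 CPM in alpha controls for 14 endothelial genes, 10.7 to 18.2 and 5.96 to 8.56 CPM for 18 immune genes, 14.8 to 29.2 and 19.6 to 21.9 CPM for 17 mesenchymal and Schwann cell genes, and 0.519 to 1.08 and 0.641 to 1.16 CPM for 6 red blood cell genes. Of 15 proliferation genes tested none was called by edgeR, and none by DESeq2 or limma-voom, while 0 had an unadjusted p under 0.05, and 1 was called lower without the count filter.

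Transcripts of the gated proteins were measured in the same libraries. Cd24a, which encodes the gated protein CD24, was at 842, 808 and 1279 CPM in delta controls and 1.02, 1.61 and 0.641 CPM in alpha controls, a difference of 9.82 ± 0.48 (edgeR adjusted p = 3.1e-10). It was a criterion of the gate, so the direction was fixed by the sort. Itga6, which encodes the integrin CD49f of the antibody panel, was at 142, 131 and 161 and 30.9, 41.2 and 25.3 CPM, and Epcam, positive in both gates, at 252, 277 and 383 and 137, 129 and 111 CPM, both higher in delta controls. Because CD49f belonged to the sorting panel, the sort may have fixed the direction of Itga6 as well. Tfrc, which encodes CD71, was at 89.8, 85.5 and 139 CPM in delta controls and 65.7, 76.7 and 65.7 CPM in alpha controls and was not called.

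**Figure D2:**
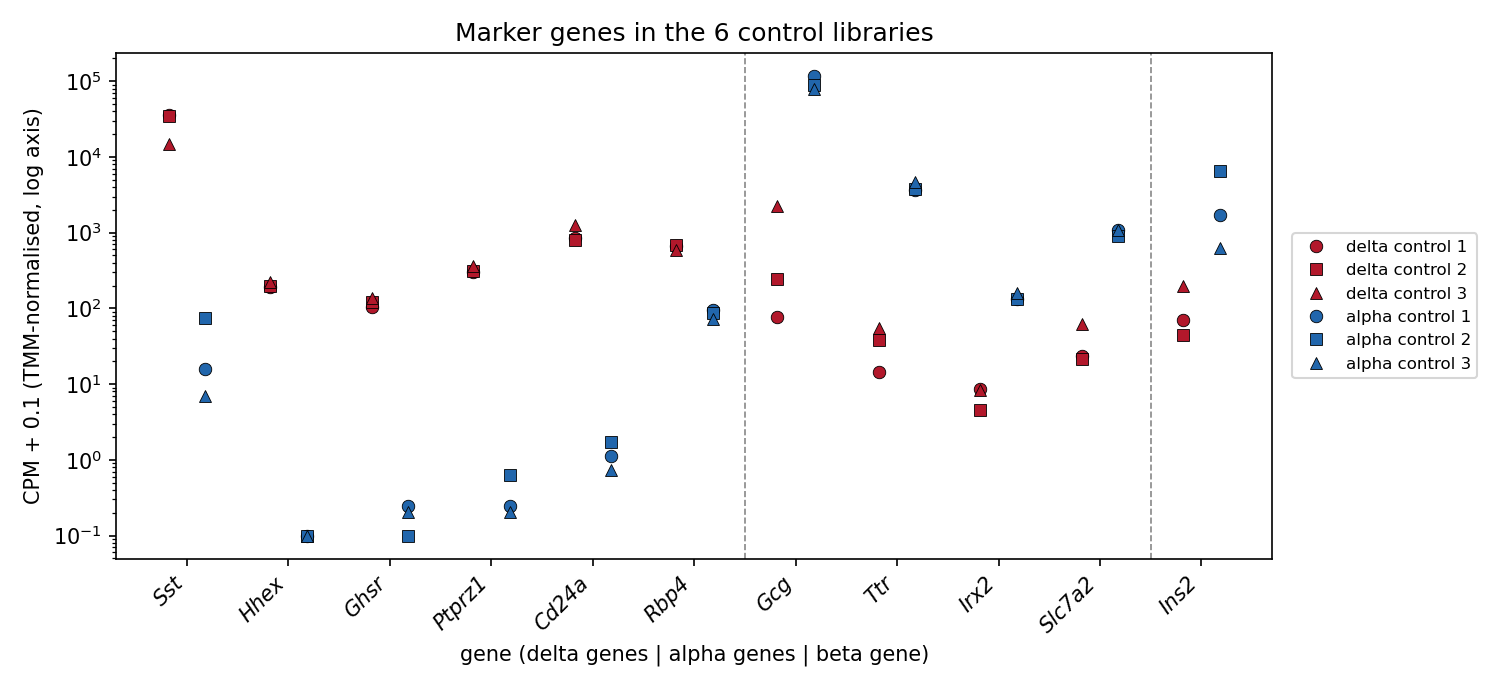
CPM plus 0.1 on a log axis for 11 genes in the 3 delta control (red) and 3 alpha control (blue) libraries, 1 point per library, with delta genes at the left, alpha genes in the middle and the beta gene Ins2 at the right. Groups do not overlap for any of the 11 genes, as for 41.5% of all genes tested, and most of the 11 came from ranks that admitted only such genes. Delta control 3 (red triangle) holds the most Gcg of its group and alpha control 2 (blue square) the most Ins2.

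Genes taken as delta cell markers were called almost throughout. This list and that of alpha cell markers were chosen with earlier results of these data known, so their counts describe the libraries and test nothing. Of 10 listed, 9 were tested and 8 were higher in delta controls, with a median log2 fold change of 9.79 against 0.03 over all genes tested, or 8.39 with genes at 0 counts set to their lower bound. Etv1 was tested and not called. Ghsr, the receptor for the hunger hormone ghrelin (chromosome 3, 27371351 to 27378010, plus strand), was at 104, 119.6 and 135 CPM in delta controls and 0.145, 0 and 0.107 CPM in alpha controls. The ratio of summed counts was 1412 (95% interval 391 to 11668), an interval that covers counting error only. Ptprz1, which encodes a receptor tyrosine phosphatase of neural cells, was at 300.3, 311 and 364 CPM in delta controls, and Spock3, which encodes a matrix proteoglycan, at 30.1, 38.2 and 60.3 CPM, while Spock3 had no count in any alpha control, which makes it at least 336-fold higher by a floor of 3 counts over the group. Rbp4, which encodes the plasma retinol carrier, differed less, at 667, 693 and 596 CPM against 94.4, 87.4 and 72.8 CPM. In beta controls Hhex, Spock3, Ghsr and Ptprz1 had means between 0.0865 and 0.397 CPM. All 4 were called higher in delta than in beta controls as well, where 11.4% of genes tested were. That comparison uses the same delta control libraries, in which these genes had been picked as high, so it is no separate support.

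Genes taken as alpha cell markers went the other way. Of 12 tested, 9 were lower in delta controls and 0 higher, with a median of -4.86. Ttr, which encodes the thyroxine carrier transthyretin, was at 14.4, 38.5 and 55.6 CPM in delta controls and 3709.5, 3751 and 4636 CPM in alpha controls (-6.80 ± 0.69, edgeR adjusted p = 1e-06). Slc7a2, a cationic amino acid transporter, was at 23.5, 21.2 and 62 against 1071, 895 and 1089 CPM. Delta control 3 again stood highest among the delta libraries for both. Gc, which encodes the vitamin D-binding protein, was at 143, 137 and 196 CPM in delta controls and 321, 273 and 237 CPM in alpha controls and was not called (edgeR adjusted p = 0.075). Fap, also in the list, was at or below 1.34 CPM in every control library, and Smarca1 had a difference of 0.49 ± 0.27.

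Transcription factors were called on both sides. Of 57 listed, 47 were tested, 15 were higher and 13 lower in delta controls. Hhex, a homeobox factor that delta cells are known to need (chromosome 19, 37434810 to 37440731, plus strand), was at 192, 199.8 and 226 CPM in delta controls. It had 0 counts in all 3 alpha controls, so that it was at least 1628-fold higher by the floor of 3 counts, the largest such bound among the named genes. Sox11, a factor of developing neurons, was at 27.5, 29 and 39.4 CPM in delta controls, and Sox9, a factor of pancreatic progenitors and duct cells, at 23.8, 19.8 and 22.3 CPM. Each had 1 count in alpha control 1 and 0 in the others. The part of duct or acinar RNA in the level of Sox9 was not tested. Neurog3, the switch of endocrine progenitors, was at 51.9, 48.3 and 24.1 CPM in delta controls and 0.291, 0.134 and 0.641 CPM in alpha controls (6.74 ± 0.63). Pdx1, a factor of beta and delta cells, was at 54.9, 48.3 and 70.1 CPM against 8.43, 21.8 and 2.24 CPM, with the highest alpha value in alpha control 2.

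Alpha controls were richer in another set of factors. Pou3f4, a POU factor of alpha cells, was at 23.8, 13.7 and 24.8 CPM in alpha controls and 0, 0.649 and 0.83 CPM in delta controls (-5.39 ± 0.74, edgeR adjusted p = 3.2e-05), with the highest delta value in delta control 3. The Iroquois genes Irx1 and Irx2 fell together, Irx1 (-5.72 ± 0.57) and Irx2 (-4.34 ± 0.34). The 4 factors Isl1, Neurod1, Nkx2-2 and Nkx6-1, the last also in the list of beta cell genes, are named here after their values were seen. Isl1 was higher in delta controls (1.05 ± 0.20), and Neurod1 (-1.21 ± 0.26), Nkx2-2 (-1.76 ± 0.25) and Nkx6-1 (-2.07 ± 0.33) were lower. Pax6, needed by all islet endocrine cells, was at 346, 375 and 389.6 CPM in delta controls and 372, 320.5 and 319 CPM in alpha controls, a difference of 0.13 ± 0.17 that was not called.

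Of 62 receptor genes for hormones and nutrients listed, 44 were tested. In delta controls 12 were higher, 8 with the date as a term of the fit, and 15 were lower. After Ghsr, the highest differences were those of the somatostatin receptor gene Sstr1, at 21.8, 21 and 11.8 CPM against 0.581, 0.535 and 0.855 CPM, and the muscarinic acetylcholine receptor gene Chrm4, at 14.1, 12.5 and 7.06 against 0.581, 0.669 and 0.748 CPM. Groups did not overlap for either. Crhr2, the receptor for urocortins including the beta cell peptide urocortin 3, was at 7.73, 7.57 and 2.28 CPM in delta controls and 0, 0 and 1.18 CPM in alpha controls, a call that DESeq2 did not make (3.86 ± 1.63, adjusted p = 0.068). The adenosine receptor gene Adora1 was higher by 2.59 ± 0.55 and stood at 25 ± 6.63 CPM in beta controls.

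Receptors of several known glucagon stimuli were on the alpha side. Avpr1b, a vasopressin receptor, was at 119.7, 109 and 104 CPM in alpha controls and 2.1, 1.62 and 4.88 CPM in delta controls, and the adrenergic receptor gene Adrb1 at 13.4, 14.3 and 12.6 against 0.0954, 0.108 and 0.104 CPM. Avpr1a, another vasopressin receptor gene of the list, was called higher in delta controls and is named after its values were seen. Sstr2, the somatostatin receptor of alpha cells, was at 28.3, 21.3 and 25.2 CPM in alpha controls and 0.954, 1.19 and 1.04 CPM in delta controls, so that Sstr1 and Sstr2 differed in opposite directions. Receptors for lipids and fatty acids were divided. Gpr119 (-4.05 ± 0.39), Ffar1 (-4.14 ± 0.46) and Ffar3 (-4.72 ± 0.67) were lower in delta controls, Ffar2 was higher (0.77 ± 0.25) and Ffar4 was not called (0.97 ± 0.40), and the last 3 are named after their values were seen. Vipr1, the receptor for vasoactive intestinal peptide, was at 17.1, 18.2 and 11 against 75.1, 87.9 and 90.8 CPM. Glp1r, the receptor for glucagon-like peptide 1, was at 119.7, 116 and 139.5 CPM in delta controls and 41.7, 113 and 18.7 CPM in alpha controls, where alpha control 2 was highest. It was not called (1.12 ± 0.50, edgeR adjusted p = 0.13), and neither were Insr (-0.05 ± 0.14) and Igf1r (0.07 ± 0.36).

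**Figure D3:**
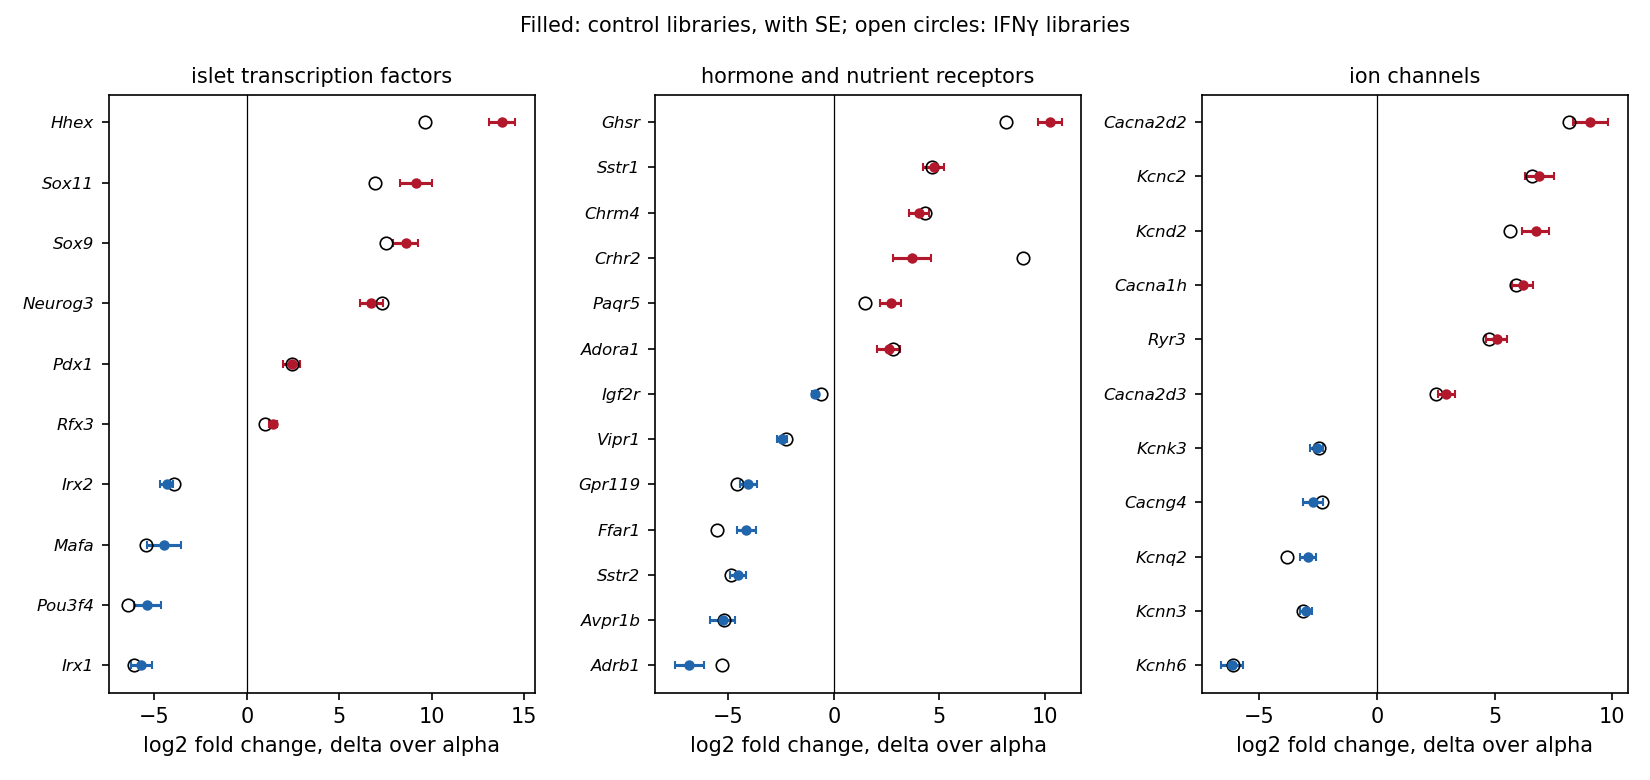
Fitted log2 fold changes of delta over alpha for named, called transcription factors, receptors and ion channels (x axis), with filled points and SE bars for the control libraries, red where higher and blue where lower in delta controls, and open circles for the 6 IFNγ libraries, which share no library with the controls. Every open circle lies on the same side of 0 as its filled point. Fitted values of genes with almost no counts in a group, such as Hhex, depend on the fit's prior count.

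Granule genes and the release machinery differed in parts. Of 22 granule cargo and processing genes tested, 3 were higher and 7 lower, with a median of -0.44. The granins, proteins that help pack hormones, split. Chgb was at 2422, 2158 and 4159.6 CPM in delta controls and 635, 759 and 403 CPM in alpha controls, and Scg2 at 2390.2, 2434 and 3715 against 879, 1186 and 714 CPM, whereas Chga was at 1396, 1367 and 1233 against 2716, 3537 and 2857 CPM. Vgf, another granin, was lower (-3.39 ± 0.43). The prohormone convertase gene Pcsk2, which cuts proglucagon, was at 1961, 1942 and 2246 CPM in delta controls and 3436, 3399 and 2993 CPM in alpha controls. Its difference was -0.68 ± 0.21 (edgeR adjusted p = 0.027), and the call was lost with the date term and in 4 of 6 fits that left out 1 library. Pcsk1 (0.42 ± 0.69), Pam (-0.19 ± 0.22) and Scg3 (0.25 ± 0.35) were not called.

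Among 47 genes of exocytosis, 6 were higher and 9 lower, 31.9% in all. Over all genes tested 10.9% were higher and 8.77% lower. Syt1, the calcium sensor of fast release in neurons, was at 77.6, 73.5 and 86.1 CPM in delta controls, 5.52, 4.68 and 4.06 CPM in alpha controls and 0.614 ± 0.575 CPM in beta controls. Rab3b was at 71.2, 60.3 and 39.4 against 9.15, 8.16 and 9.3 CPM and its relative Rab3c at 7.16, 12.4 and 15.9 against 47.4, 46 and 37.5 CPM, in opposite directions. Cadps, which primes granules for release, was at 8.87, 11.1 and 16.4 CPM in delta controls and 204, 186 and 176 CPM in alpha controls (-3.96 ± 0.29). The synaptotagmin-like gene Sytl2 was lower (-6.12 ± 0.58) and the vesicle glycoprotein gene Sv2b (-5.10 ± 0.52). Syt7 (-0.38 ± 0.22), Syt13 (-0.01 ± 0.17) and Rab27a (-0.26 ± 0.18) were not called.

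Of 69 ion channel genes tested, 24 were higher and 15 lower in delta controls. Calcium channel subunit genes were higher in 5 cases and lower in 3. Cacna1h, a T-type channel, was at 132, 169.9 and 58 CPM against 1.31, 1.74 and 1.82 CPM, and the auxiliary subunit gene Cacna2d2 at 59.4, 49.5 and 50.4 CPM against at most 0.268 CPM in an alpha library. The subunit genes lower in delta controls were Cacng4 (-2.72 ± 0.42), Cacna1e (-2.40 ± 0.65) and Cacna1c (-0.94 ± 0.26), the last 2 named after their values were seen. The intracellular calcium release channel gene Ryr3 was higher by 5.09 ± 0.45. The potassium channel genes Kcnc2 and Kcnd2 were at 61.8 to 74.8 and 19.5 to 27.4 CPM in delta controls and at or below 1.61 and 0.401 CPM in alpha controls. Trpa1, which encodes a channel opened by irritants, had no count in alpha controls and was at 21.5, 19.5 and 38 CPM in delta controls, at least 208-fold higher.

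On the alpha side stood other potassium channels. Kcnh6 was at 131, 114 and 203 CPM in alpha controls and 1.24, 1.73 and 3.22 CPM in delta controls (-6.17 ± 0.47), and the tandem-pore channel gene Kcnk3 at 122, 114 and 143 against 23.9, 23.8 and 16 CPM. Kcnn3, a calcium-activated potassium channel, was lower (-3.03 ± 0.26). Abcc8, the sulfonylurea receptor of the ATP-sensitive potassium channel, was at 1518, 1695 and 767 CPM in delta controls and 915, 1007 and 1135 CPM in alpha controls, with overlapping groups and no call. The L-type calcium channel gene Cacna1d was not called (-0.42 ± 0.15; edgeR adjusted p = 0.058).

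Genes of cAMP and G protein signalling were higher in 15 and lower in 9 of 52 tested. The adenylate cyclases, which make cAMP, were divided by isoform. Adcy8 was at 25.8, 33.1 and 20.2 CPM in delta controls and at 0 counts in all alpha controls, at least 208-fold higher. Adcy1 was at 18.5, 9.9 and 13 CPM in alpha controls against 0.477, 1.62 and 0.311 CPM in delta controls, and Adcy5 was lower (-1.83 ± 0.44). Gnas, whose locus encodes the stimulatory G protein subunit and is overlapped by the antisense gene Nespas, was at 1881, 1804 and 1622 CPM in delta controls and 4649.5, 4110.1 and 4070.4 CPM in alpha controls, while Gnai1, an inhibitory subunit, was lower (-2.97 ± 0.35). Rgs9, a brake on G protein signals, was higher in delta controls, at 228, 248 and 151 against 26.6, 33.1 and 35.9 CPM, and Rgs4 was lower, at 175, 158 and 245 against 801, 444 and 639 CPM. Among 28 genes for glutamate, GABA and glycine signalling 8 were higher and 4 lower, with 5 higher when the date was a term of the fit. Among them were the GABA receptor subunit gene Gabrg1 (3.87 ± 0.74) on the delta side and Gabbr2 (-4.20 ± 0.61) on the alpha side.

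Genes of cell contact were called on both sides. Of 59 adhesion genes tested 27 were higher and 11 lower, with a median of 0.81. Pcdh15, a protocadherin of hair cells, was at 271, 279.5 and 287 CPM in delta controls and 9.73, 7.23 and 10.5 CPM in alpha controls (4.93 ± 0.23, edgeR adjusted p = 3.1e-10). Ncam2 was at 192, 183 and 368 against 34.3, 24.9 and 20.6 CPM and the contactin gene Cntn3 at 23, 27 and 29.3 against 0.872, 0.669 and 1.5 CPM. Nrcam, another cell adhesion molecule of neurons, was on the alpha side, at 73.4, 60.5 and 48.2 against 0.573, 0.973 and 3.63 CPM. Ncam1 (-0.53 ± 0.19) was not called.

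Of 54 axon guidance genes tested, 15 were higher and 8 lower in delta controls, and 21 were higher with the GC offset. The netrin receptor gene Unc5c was at 222, 224 and 264 CPM in delta controls and 19.2, 18.9 and 27.6 CPM in alpha controls, and the semaphorin co-receptor gene Nrp2 at 28.9, 28.9 and 38.2 against 1.02, 0.401 and 0.107 CPM. The ephrin gene Efna5 was higher by 3.39 ± 0.24. On the alpha side, the Slit receptor gene Robo1 was lower in delta controls (-4.06 ± 0.46) and its relative Robo2 (-1.95 ± 0.21), and Ntn4, a netrin, (-5.40 ± 0.77). Gfra3, the receptor part for the neurotrophic factor artemin, was at 87.2, 84.3 and 105 CPM in alpha controls and 0.286, 0.433 and 0.623 CPM in delta controls (-7.65 ± 0.49).

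Neurite genes were higher in 11 and lower in 7 of 35 tested. Gap43, a protein of growing axons, was at 39.2, 30.3 and 41.4 CPM in delta controls, 1.45, 1.87 and 0.427 CPM in alpha controls and 0.0475 ± 0.0822 CPM in beta controls. The cannabinoid receptor gene Cnr1 was at 10.8, 11.8 and 16.5 against 0.581, 0.669 and 0.107 CPM, and Dcx, which binds microtubules in migrating neurons, at 83.1, 83.2 and 126 against 18, 21.1 and 15.8 CPM. Other members of the list were on the alpha side. Ina, an internexin, was lower (-1.73 ± 0.30) and Dclk2 (-1.61 ± 0.24). Map1b (-0.01 ± 0.21) and Map2 (0.22 ± 0.20) were not called.

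Metabolic genes were lower in 15 and higher in 3 of 54 tested (1 with the date term), with a median of -0.31. The main fit called 33.3% of them, against 19.7% of all genes tested. Pdk4, the kinase that shuts off pyruvate oxidation, was at 205, 151 and 137 CPM in alpha controls and 0.573, 0.541 and 4.57 CPM in delta controls (-6.44 ± 0.67, edgeR adjusted p = 1.5e-06). The mitochondrial glycerol phosphate dehydrogenase gene Gpd2 was at 138, 122 and 126 against 16.6, 20.2 and 27.3 CPM, the gluconeogenic gene Fbp1 at 109, 78.6 and 104 against 11.3, 13.6 and 14 CPM, and the hexokinase gene Hk1 at 26.2, 24 and 19 against 2.48, 1.51 and 1.87 CPM. Groups did not overlap for any of them. Ldha, a lactate dehydrogenase known to be kept low in islet endocrine cells, was at 16.5, 23.8 and 20.9 CPM in delta controls and 0.145, 5.75 and 3.74 CPM in alpha controls, and its call was lost with the date term (edgeR adjusted p = 0.05045). Pkm (-0.11 ± 0.25) and Aldoa (0.15 ± 0.28) were not called.

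Amino acid transporters, through which amino acids reach the alpha cell, were lower in 8 and higher in 4 of 29 tested, and higher in 9 with the GC offset. Without the offset 41.4% of them were called, against 19.7% of all genes tested. Besides Slc7a2, Slc38a4 was at 543, 501 and 589 CPM in alpha controls and 20.2, 25.7 and 46.5 CPM in delta controls, Slc7a8 at 455, 456 and 450.2 against 33.6, 33.4 and 27.8 CPM, and Slc38a5 at 68.6, 60.1 and 87.6 against 10.8, 8.87 and 2.91 CPM. Within the Slc38 family the direction was not shared, since Slc38a1 was at 10.3, 10.6 and 10.6 CPM in delta controls and 0.872, 0.401 and 0.641 CPM in alpha controls and Slc38a2 was higher by 1.22 ± 0.26. Slc7a5 (0.51 ± 0.28) and Slc7a1 (0.47 ± 0.19) were not called.

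Developmental signals were called 16 times higher and 15 times lower among 66 genes tested. Bmp3, a secreted member of the bone morphogenetic protein (BMP) family, was at 177, 184 and 259 CPM in delta controls, 0, 0.401 and 0.107 CPM in alpha controls and 0.863 ± 0.505 CPM in beta controls. The Wnt receptor genes Fzd8 and Lrp5 were higher by 3.09 ± 0.32 and 3.13 ± 0.36. In alpha controls Id1, at 15, 24.6 and 13 against 1.15, 0.108 and 0.519 CPM, and Id3, at 27, 24.9 and 37 against 1.05, 4.00 and 1.35 CPM, both transcriptional targets of BMP signals, were higher, whereas the related genes Id2 (1.04 ± 0.28) and Id4 (1.79 ± 0.34), named after their values were seen, were higher in delta controls. Also higher in alpha controls were Wnt4 (-2.93 ± 0.20), the secreted Wnt inhibitor gene Sfrp5 (-3.63 ± 0.58) and the Wnt receptor gene Ror2 (-5.16 ± 0.52). Notch1 (-0.02 ± 0.31) and Bmpr2 (0.17 ± 0.23) were not called.

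Imprinted genes, expressed from 1 parental copy, were higher in 13 and lower in 5 of 32 tested. Mest was at 168, 181 and 219 CPM in delta controls, 1.6, 1.61 and 2.14 CPM in alpha controls and 1.16 ± 0.215 CPM in beta controls (6.71 ± 0.34, edgeR adjusted p = 3.4e-10). Dlk1, a Notch-like ligand, was at 29.7, 36.8 and 15.4 against 0.872, 1.2 and 0.321 CPM. Nespas, antisense to Gnas, was at 39, 51.5 and 13.2 CPM in delta controls and at or below 0.535 CPM in alpha controls, while Gnas went the other way, and the sources do not say if reads were counted by strand. Grb10, an adaptor that dampens insulin receptor signals, was lower (-1.48 ± 0.20). The abundant transcripts Peg3 (0.48 ± 0.24) and Meg3 (0.17 ± 0.23) were not called.

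Calls in the lists of stress and immunity rested in part on single libraries. Shares called were 34.6% for the unfolded protein response, 25.5% for antigen presentation and interferon and 22.2% for immediate early and dissociation genes. Over all genes tested the share was 19.7%, and the last of these lists lay near it. Unfolded protein response genes were higher in 9 of 26 tested and none was lower, yet 4 were higher without delta control 3, 2 without alpha control 1 and 2 without alpha control 3, and 14 without the count filter. Herpud1, an endoplasmic reticulum stress gene, was at 229.8, 238 and 181 CPM in delta controls and 73.5, 92.3 and 75.9 CPM in alpha controls and kept its call in each of these fits, whereas Hspa5, the main chaperone of this compartment, was not called (0.74 ± 0.31). Antigen presentation and interferon genes were higher in 4 and lower in 8 of 47 tested, and the 4 became 1 without delta control 3, alpha control 1 or alpha control 3, and 2 without alpha control 2. The 8 became 4 without delta control 2, 5 without delta control 3 and 3 without alpha control 3. Ifih1, a sensor of viral RNA, was at 31.5, 35 and 60.5 CPM in delta controls and 115, 105 and 109.5 CPM in alpha controls without added IFNγ. Socs3, an inhibitor of cytokine signals, was at 33.3, 20.2 and 19.6 against 117, 74.1 and 93.1 CPM. H2-K1 (-0.17 ± 0.23), Jak1 (0.21 ± 0.17) and Stat3 (-0.20 ± 0.16) were not called. Immediate early and dissociation genes were higher in 4 and lower in 2 of 27 tested, with Klf4, a stress-responsive factor, at 2.48, 1.19 and 4.98 against 29.5, 28.1 and 20.2 CPM, and without delta control 3, 4 were lower, while without alpha control 1, 2 were higher.

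**Figure D4:**
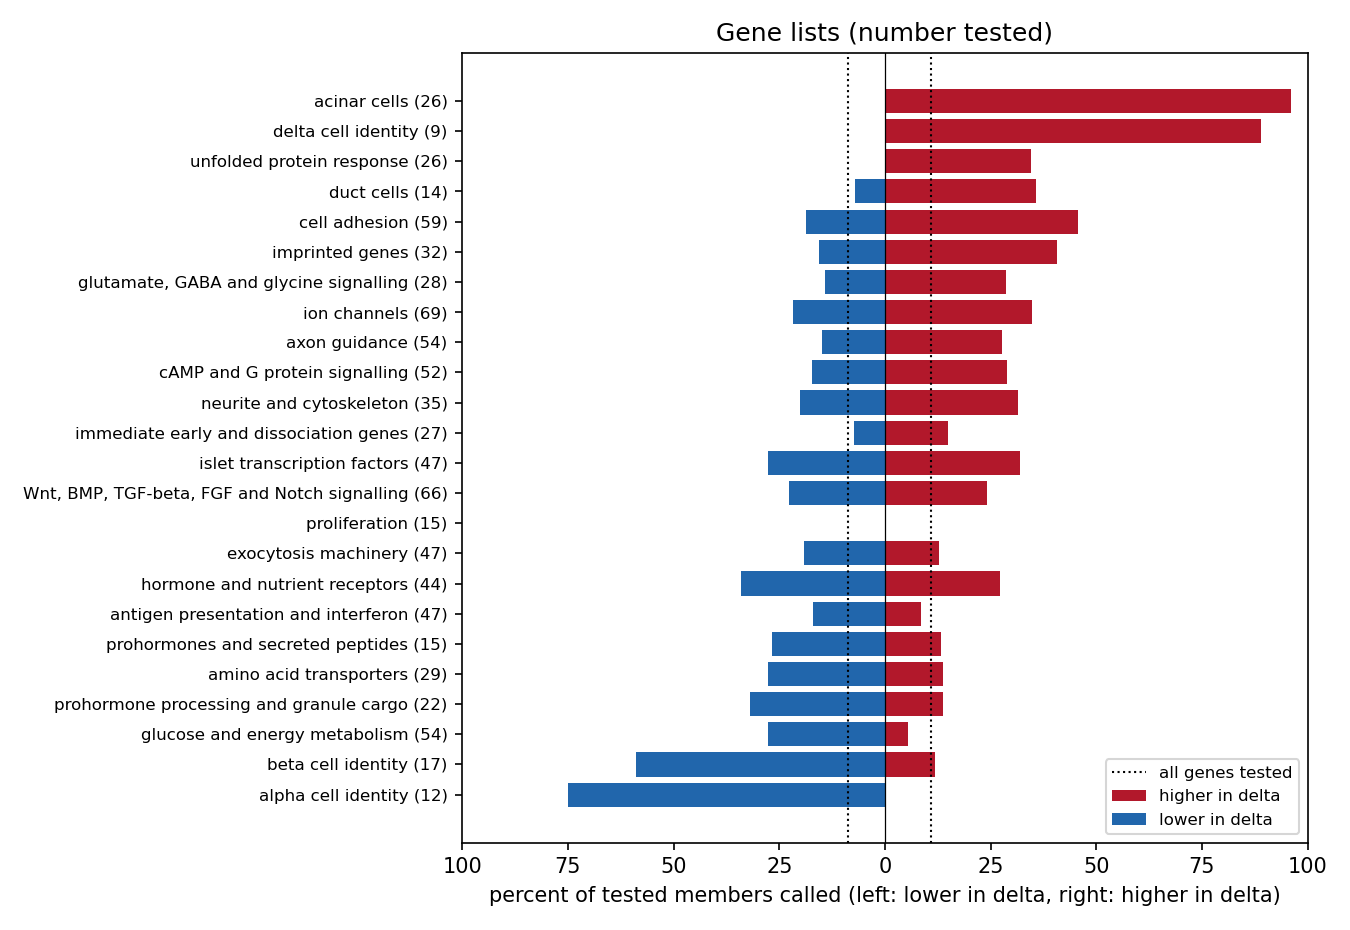
Percent of tested members called higher (red, right) or lower (blue, left) in delta controls for each list with 9 or more tested genes, the number tested in parentheses, with dotted lines at 10.9% and 8.77% for all genes tested. Acinar and delta cell identity genes reach furthest to the right and alpha cell identity genes furthest to the left.

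The largest differences not covered by these lists included further secreted and synaptic genes. Cbln4, a synapse-organising protein, had no count in alpha or beta controls and was at 18.5, 12.8 and 21.9 CPM in delta controls, at least 141-fold higher than in alpha controls. Mef2c, a factor of muscle and neurons, was at 85.8, 77.7 and 139 CPM against 0.291, 0 and 0 CPM. On the alpha side Stac2, an adaptor of calcium channels, was at 7.55, 9.77 and 10.5 CPM in alpha controls and had no count in delta controls, at least 92-fold lower. Igsf21, a synaptic adhesion protein, was at 29.3, 28 and 27.6 against 0, 0 and 0.104 CPM. By the size of the CPM difference, 3 transcripts on the alpha side were ribosomal or other structural RNA or resembled it, the ribosomal CT010467.1, Rn7s2 and Lars2, whose exons hold a ribosomal-like repeat. Lars2 was at 672, 1687 and 1352 CPM in delta controls and 6143, 6714 and 4006 CPM in alpha controls, and each of the 3 calls was lost in at least 7 of the 19 alternative fits.

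The 6 libraries of islets treated with IFNγ gave the same contrast in other samples. They were part of the fit and so of its low-count filter and its estimate of spread, and a fit of the 6 control libraries alone kept 86.2% of the control calls. There 1538 genes (8.87%) were higher and 1237 (7.13%) lower in delta than in alpha cells, 16% in all. Of the 1897 genes higher in delta controls, 1855 (97.8%) had the same sign, and 1188 were also called, which is 62.6% of the control calls and 77.2% of the IFNγ calls. Of the 1520 lower genes, 1491 (98.1%) had the same sign and 905 were also called, 59.5% of the control calls and 73.2% of the IFNγ calls. None was called in the opposite direction. Sst was higher by 9.84 ± 1.33 and Ghsr by 8.17 ± 0.45 in IFNγ-treated delta cells, and Gcg (-8.54 ± 1.48) and Ttr (-7.62 ± 0.71) were lower. The summed acinar level was 741 to 2941 CPM in IFNγ-treated delta cells and 14.1 to 39.3 CPM in IFNγ-treated alpha cells.

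Whether the delta to alpha difference itself changed with IFNγ was tested as an interaction. The edgeR test called 0 genes (0%), with a lowest adjusted p of 0.20, and 783 genes had an unadjusted p under 0.05. DESeq2 called 4, limma-voom 1 and edgeR without the low-count filter 106. With the date as a term edgeR called 19. Among the genes named here, none passed by edgeR in the whole fit, which does not show that the differences were equal. Of the named genes called in the controls, 3 had the opposite sign with IFNγ, all of the interferon list and none of them called there: Stat2 (-0.80 in controls, 0.20 with IFNγ), Irgm2 (-0.96 and 0.26) and H2-Q4 (-0.78 and 0.48). The control calls of Stat2 and H2-Q4 were themselves lost with the date term, without delta control 3 (edgeR adjusted p = 0.052 and 0.074), without alpha control 3 (0.078 and 0.14) and without 1 other library each, delta control 2 for Stat2 (0.057) and delta control 1 for H2-Q4 (0.065), and that of H2-Q4 also with GC offsets. Ifih1 was lower in delta cells (-1.30 ± 0.22) with IFNγ and Socs3 (-0.73 ± 0.35), where Ifih1 was called and Socs3 was not.

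**Figure D5:**
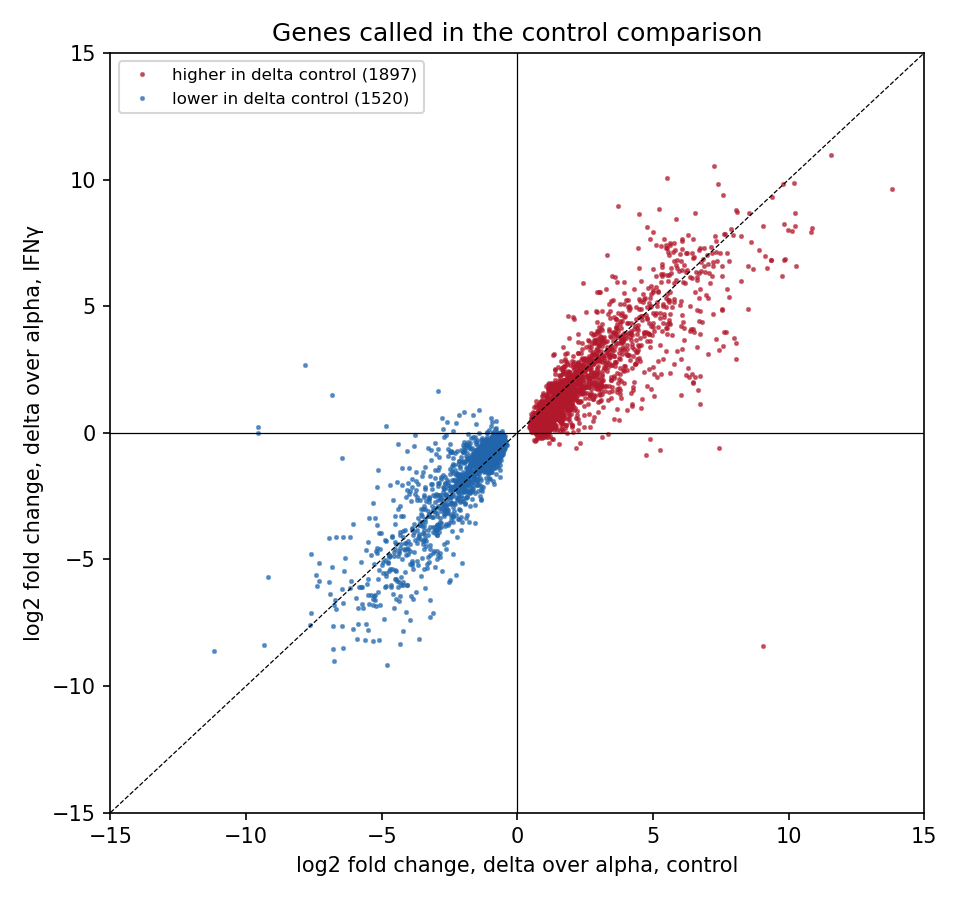
Fitted log2 fold change of delta over alpha in the control libraries (x axis) and in the IFNγ libraries (y axis) for the 1897 genes called higher (red) and the 1520 called lower (blue) in delta controls, with the line of equality dashed. Of these, 1855 and 1491 lie on the same side of 0 in both, and the red point far below 0 is the pseudogene Rpl7a-ps11, which was not called in the IFNγ libraries.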

How the data were processed

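RNA of islet cells sorted by flow cytometry was measured by RNA-seq in 18 libraries, 3 for each cell type and treatment. Per the study's methods, Ovation SoLo libraries were sequenced as paired 75-base reads on a NextSeq 500, aligned with STAR 2.5.2b to GRCm38 and quantified with RSEM (version not stated). The deposited expected counts and TPM are the authors' RSEM estimates per gene. FPKM was not used. Expected counts were rounded, and 99.5% of 55487 identifiers were matched to GENCODE M21 symbols and positions, while the study names a later release. The fit used edgeR 4.0.16 in R 4.3.3 with all 18 libraries, a mean per group, TMM scaling, filterByExpr (minimum count 10), the quasi-likelihood test and Benjamini-Hochberg adjustment at 0.05 over 17338 genes. The study's own DESeq2 model had a batch term, which the labels do not give, so no batch was fitted here and the date in the file names served as an alternative. In describing its t tests, the study calls its biological samples independent. It does not say if a delta and an alpha library came from the same islets, which its sort would allow. The p-values here treat all libraries as independent, also between the cell types. DESeq2 1.42.0 and limma 3.58.1 served as alternatives, and the test was tried on simulated counts. Intervals and floors (3 counts) cover counting error only, since PCR copies may be present. Overlapping genes and near-identical copies have uncertain shares of reads. Members and gene lists were chosen with earlier results of these data known. Named genes were the marker genes, the 12 largest by fold change and by CPM difference in each direction, up to 6 called genes per list and direction (5 CPM or more), the sort gate genes, and up to 4 abundant genes per list that were not called. The 12 largest were taken among called genes with a mean of at least 5 CPM in the higher group. Those genes also had to show no overlap between the groups and to have a symbol that is not a predicted one. Some genes that this rule names are not reported here. Alternatives covered filters, scaling, tools, GC content, date, pairing, libraries left out and a minimum fold change. A change in direction was counted where either value was called.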

Additional observations from a re-analysis of the deposited data

How the results depend on the processing

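No named gene changed direction between called values in any of 19 alternative fits, and 176 of 219 called named genes kept their call in every fit other than the one requiring a log2 fold change above 1. That fit called 707 genes higher and 457 lower in delta controls, and 716 and 489 in the IFNγ libraries. Leaving out 1 control library gave 1258 to 1704 higher and 1013 to 1198 lower genes, with the fewest higher genes without alpha control 3 and the fewest lower without delta control 3. Why these counts lay below those of the whole fit was not tested. Restricted to the 6 control libraries without delta control 3, an alternative chosen after seeing the data, the fit called 1877 and 1802. DESeq2 called 2202 and 1822, limma-voom 1874 and 1659, and the fit without a count filter 2163 and 1803. With GC offsets the counts were 1830 and 1550, with 79.3% of the calls kept, and with the date as a term 1812 and 1447, with 68.3% kept. The date term left 865 higher and 689 lower genes in the IFNγ libraries, and the cause was not tested. The change of the delta to alpha difference with IFNγ was called for 0 genes in the whole fit, 106 without the filter, 19 with the date term, 4 by DESeq2 and 1 by limma-voom, and the cause was not tested. Same-numbered delta and alpha controls did not deviate together (correlations of -0.04, -0.16 and -0.27), and the numbers were not taken as pairs. With 3 libraries per group, such correlations cannot decide whether same-numbered libraries came from the same islets. With the replicate block 1942 and 1633 genes were called, and with the replicate block and GC offsets 1784 and 1488. No replicate correlated best with its own number.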

Other observations

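Outside the lists, and chosen after their values were seen, further genes for secreted factors and their receptors differed between the populations. Edn3, which encodes endothelin 3, was at 2.23 ± 1.69 CPM (SD, n = 3) in delta controls and 86.8 ± 21.5 CPM in alpha controls, and Ednrb, a receptor for endothelins, at 21.8 ± 13.6 and 0.141 ± 0.145 CPM, so that ligand and receptor genes were high in opposite populations. Both were called by edgeR in the controls and in the IFNγ libraries. Hgf, the hepatocyte growth factor gene, was at 25.2 ± 6.71 CPM in delta controls and 0.884 ± 0.657 CPM in alpha controls. Lpl, which encodes lipoprotein lipase, was on the alpha side, at 13.2 ± 16.5 and 466 ± 39.5 CPM, and so was the lactate receptor gene Hcar1, at 0.302 ± 0.188 and 15.2 ± 1.43 CPM. Slc16a7, a monocarboxylate transporter gene, was on the delta side, at 96.1 ± 19.5 and 2.91 ± 1.23 CPM. Adgrf5, an adhesion receptor gene, was at 158 ± 17.2 CPM in delta controls, 0.599 ± 0.547 CPM in alpha controls and a mean of 9.23 CPM in beta controls (log2 fold change 8.11 ± 0.44, edgeR adjusted p = 7.6e-10). These 7 genes had the same sign in the IFNγ libraries.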
